A study of Rattus norvegicus with 5 samples.

Results

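The nuclei described here are GABA neurons of the rat ventral tegmental area (VTA) in which *Npas1* was detected. They were found among 22084 nuclei of 5 libraries, 1 library per rat, and 127 nuclei met the rule. The rats were male Sprague-Dawley rats of 1 group, which the labels give as treated with saline and the study describes as drug-naïve. VTA tissue of each rat was frozen and its nuclei were run through the 10x Genomics 3' assay, which counts unique molecular identifiers (UMIs, 1 per captured transcript). Each barcode kept had at least 1000 UMIs, over 200 and under 5000 genes and under 5% mitochondrial UMIs. A GABA nucleus had at least 2 of *Gad1*, *Gad2* and *Slc32a1* detected, at most 1 UMI of *Slc17a6*, under 10 UMIs of *Mog* per 10000, and under 8 UMIs per 10000 of *Th*, *Slc6a3*, *Slc18a2* and *Ddc* together. This gave 2135 nuclei, from which 293 with at least 2 of *Pax7*, *Meis2*, *Corin* and *Nox4*, and 452 others with a UMI of *Gata2*, *Gata3* or *Sox14*, were set apart. The remaining 1390 nuclei were divided into 127 with at least 1 UMI of *Npas1* and 1263 with 0. The nuclei were thus selected on measured UMIs of these 17 genes, whose levels are given as a description and were not tested.

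NPAS1 is a transcription factor of the bHLH-PAS family. It binds DNA as a dimer with ARNT or ARNT2 and acts mainly as a repressor. In the basal ganglia it is known as a marker of a class of GABA neurons of the external globus pallidus. GABA neurons of the VTA inhibit neighbouring dopamine neurons and also project out of the region. *Gad1* and *Gad2* encode the enzymes that make GABA, and *Slc32a1* encodes the transporter that loads it into vesicles.

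The libraries held 10193355 to 88576210 UMIs. The 127 nuclei had a median of 8236 UMIs (range 1276 to 15996), and the 1263 *Npas1*-negative nuclei a median of 4893, so the positive nuclei were the deeper ones. Rats 1 to 5 gave 9, 47, 2, 15 and 54 *Npas1*-positive nuclei and 104, 633, 166, 113 and 247 negative ones. The median share of mitochondrial UMIs was 0.318%, 0.553%, 0.370%, 0.114% and 0.263% in the positive nuclei. In the negative nuclei it was 4.22%, 0.870%, 0.348%, 0.141% and 0.435%, higher except in rat 3. Rat 3 stood apart, since its 2 positive nuclei held 4331 UMIs together and a single UMI there was worth 2.31 per 10000. A gene at 0 in that rat was counted as lower there. Of the positive nuclei, 1 had a barcode that also occurred in another library, as did 4 of the negative ones. Scrublet marked 8 of the 22084 nuclei as doublets, none of them among the positive or negative nuclei. This share was taken as too low to rely on, which was not tested, and doublets were not removed.

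*Npas1* was sparse. Of the 127 nuclei, 75 held 1 UMI, 28 held 2, 11 held 3, 10 held 4, and 1 nucleus each held 5, 7 and 11. The nuclei just inside the rule were therefore the 75 with 1 UMI, and those just outside were the 1263 with none. *Gad2* was detected in 124 of the 127, *Gad1* in 113 and *Slc32a1* in 59, and 42 had all 3. *Slc17a6* was at 0 in 120, *Mog* was at 0 in 86, and all 4 dopamine genes were at 0 in 44. *Meis2*, which encodes a homeodomain transcription factor, was detected in 29. By rat, the summed *Meis2* level in the positive nuclei was 0, 1.59, 0, 2.10 and 5.57 UMIs per 10000, and in the negative nuclei 1.27, 1.24, 1.63, 0.585 and 2.93. The *Npas1* level of the positive nuclei, fixed above 0 by the rule, was 2.36, 1.70, 4.62, 1.67 and 2.38 UMIs per 10000.

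The *Npas1*-positive share of these GABA nuclei was 9.15% ± 6.20 (mean ± SD, n = 5 rats). It was 7.96% in rat 1 (exact Clopper-Pearson 95% interval 3.71 to 14.6), 6.91% in rat 2 (5.12 to 9.09), 1.19% in rat 3 (0.144 to 4.23), 11.7% in rat 4 (6.71 to 18.6) and 17.9% in rat 5 (13.8 to 22.8). The intervals cover counting error only. Those of rats 2 and 3 lay below that of rat 5, without overlap. The median depth of the GABA nuclei was 1991, 5741, 1839.5, 8452.5 and 6360 UMIs in rats 1 to 5, so the lowest share belonged to the shallowest rat. At a common depth of 1000 UMIs, the expected share was 1.79%, 1.23%, 0.661%, 2.02% and 4.25%, and rat 5 was still the highest. Among the nuclei under 50 glial marker UMIs per 10000, a filter described below, the order differed: 35.0% in rat 1 (7 of 20, 15.4 to 59.2), 9.66% in rat 2, 1.35% in rat 3, 13.98% in rat 4 and 22.7% in rat 5 (48 of 211, 17.3 to 29.0), with overlapping intervals in rats 1 and 5. The expected shares at 1000 UMIs rest on less than 1 UMI of *Npas1* per nucleus and give no finer order.

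A UMI of *Npas1* was also found in nuclei outside the rule. Over all rats it was present in 9.14% of the 1390 GABA nuclei (median 5371 UMIs), in 7.52% of the nuclei with *Gata2*, *Gata3* or *Sox14* (median 8170.5 UMIs) and in 4.44% of those with the *Pax7*, *Meis2* genes (median 7909). It was present in 6.47% of 448 nuclei with at least 2 UMIs of *Slc17a6*, the vesicular glutamate transporter, at a median of 7977.5 UMIs. It was present in 1.29% of 3030 nuclei with dopamine genes (median 2073 UMIs) and in 0.586% of 8538 nuclei with *Mog*, which is expressed by oligodendrocytes (median 2932 UMIs). These shares pool nuclei over rats, and each class drew a different part of its nuclei from each rat. The shares within rats are therefore given as well, and no difference between classes was tested. The *Slc17a6* share was 7.95%, 1.44%, 0%, 9.30% and 14.8% in rats 1 to 5, and that of the *Gata2*, *Gata3* or *Sox14* nuclei was 5.88%, 7.45%, 1.27%, 9.72% and 11.5%. The GABA share was above the *Slc17a6* share in 5 of 5 rats, with the smallest gap in rat 1, and above that of the *Gata2*, *Gata3* or *Sox14* nuclei in 3 of 5. Against *Slc17a6*, the counts were 9 of 113 and 7 of 88 in rat 1, a near tie, and 2 of 168 and 0 of 38 in rat 3. In each rat the GABA share was above the *Pax7*, *Meis2*, the dopamine (0% to 2.92%) and the *Mog* nuclei (0% to 0.885%). For the *Pax7*, *Meis2* nuclei this rested on 0 of 7 in rat 1 and 0 of 9 in rat 3. As a summed level pooled over rats, *Npas1* was at 0.278 UMIs per 10000 in the GABA nuclei, 0.143 in the *Slc17a6* nuclei and 0.0177 in the *Mog* nuclei. In barcodes under 100 UMIs, which hold mostly free RNA, it was at 0.277, 0.0943, 0.0440, 0.174 and 0.113 in rats 1 to 5, against 0.386, 0.153, 0.0575, 0.241 and 0.569 in the GABA nuclei of the same rats. The GABA nuclei were above the free RNA in each rat, by the widest margin in rat 5. How many of the nuclei with 1 UMI owe it to free RNA was not tested.

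**Figure D1:**
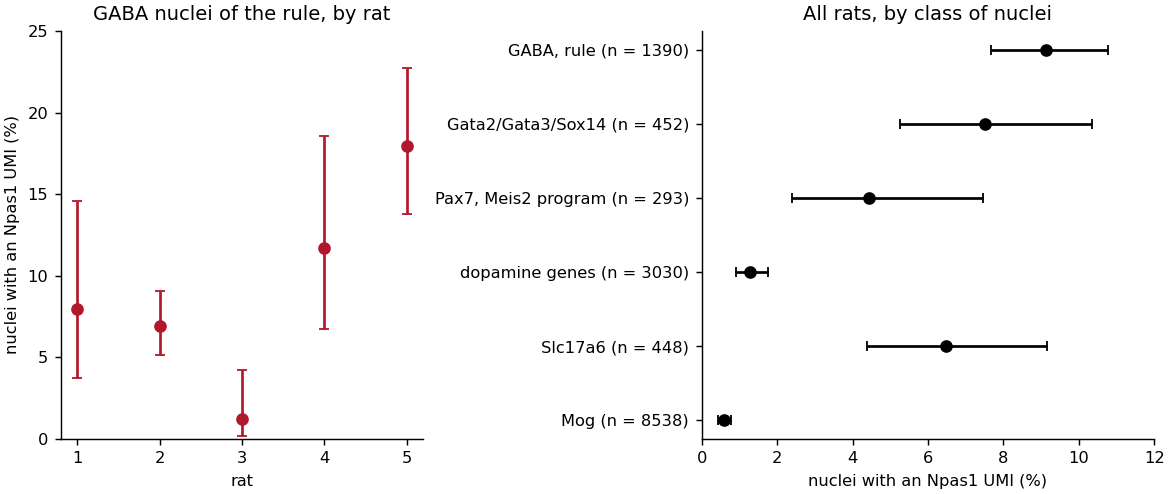
Share of nuclei with an *Npas1* UMI. Left, the GABA nuclei of the rule in each rat. Right, classes of nuclei over all rats, with n the number of nuclei. Points are percentages and bars are exact 95% intervals of counting error. Rat 5 is highest at 17.9% and rat 3 lowest at 1.19%. The bars of the right plot pool nuclei over rats and leave out the spread between rats.

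The positive nuclei were not spread evenly over the GABA nuclei. When all 1390 nuclei were clustered without the 17 rule genes, 17 clusters formed, and 1 of them, cluster 1, held 69 of the 127 positive nuclei, or 54.3%. By rat these were 1 of 9, 25 of 47, 1 of 2, 6 of 15 and 36 of 54, so that rats 2 and 5 supplied most of them. Cluster 1 had 241 nuclei, of which 28.6% were positive, against 5.05% of the 1149 nuclei of the other clusters. In rats 2, 4 and 5 the positive share within it was 23.6%, 31.6% and 33.0%, against 3.83%, 8.26% and 9.38% elsewhere. Rats 1 and 3 had 6 nuclei and 1 nucleus in it. It was deeper than the rest, with a median of 7764 against 4571 UMIs. Its leading genes by fold were *Meis2*, *Fstl4*, *Npas1*, *Arpp21* and *Thsd7b*, which describe the cluster and were not tested. Cluster 16 was made of 11 nuclei of rat 1 alone, led by *Mctp2*, and 6 of them were positive. Clusters 2 and 4 held 10 positive nuclei each, cluster 5 held 8 and cluster 3 held 7, and 4 clusters held none. The clusters are numbered and were given no cell type name. They depend on settings, since values were centred per library first. Without centring, the cluster with most positive nuclei held 75 of the 127, with 6 of the 9 of rat 1 and 9 of the 15 of rat 4. At resolution 0.5 that cluster held 71, and 6 positive nuclei of rat 1 lay in a cluster of 88 nuclei from every rat. At resolution 1.2 a cluster of 11 nuclei of rat 1 alone formed again.

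**Figure D2:**
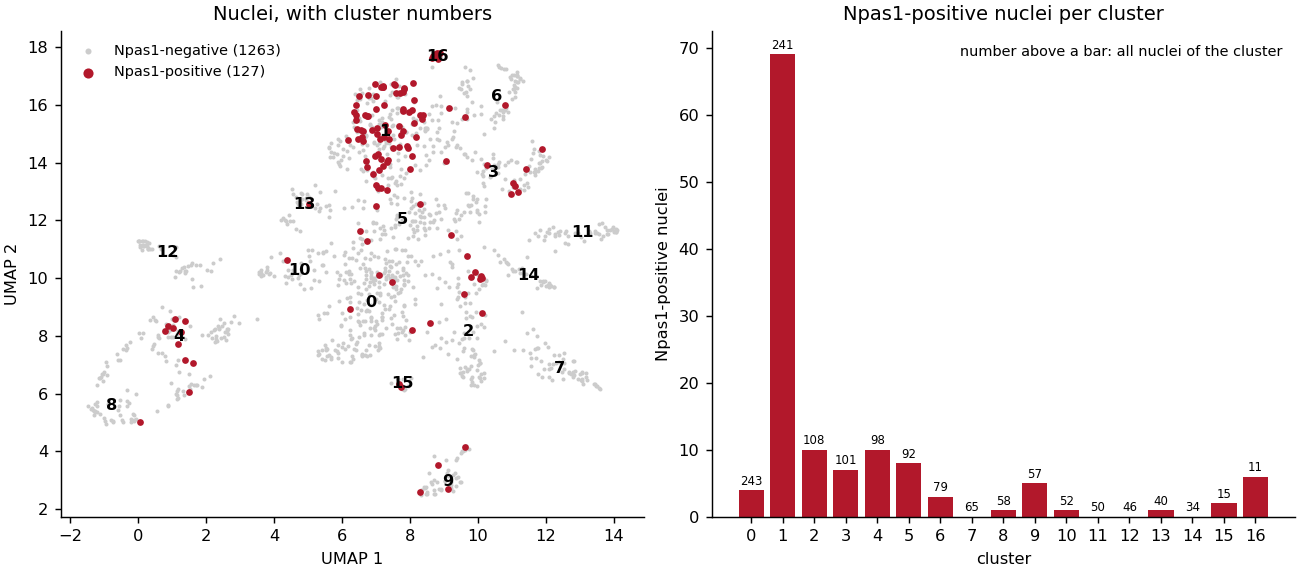
The 1390 GABA nuclei clustered without the rule genes. Left, a map (UMAP axes have no unit) with *Npas1*-positive nuclei in red and cluster numbers at the cluster medians. Right, positive nuclei per cluster, with the number of all nuclei above each bar. Cluster 1 holds 69 of the 127.

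The GABA rule let glial RNA through. Of the 17 clusters, 6 were led by oligodendrocyte, astrocyte, oligodendrocyte precursor, microglial or vascular genes, or, in cluster 0, by mitochondrial and housekeeping genes, and these held 522 of the 1390 nuclei but 21 of the 127 positive ones. The sum of the glial and vascular marker lists reached 50 UMIs per 10000 in 571 of the 1263 negative nuclei (45.2%) and in 26 of the 127 positive ones (20.5%). By rat this was 87.5%, 54.2%, 12.05%, 29.2% and 34.0% of the negative and 22.2%, 34.0%, 0%, 13.3% and 11.1% of the positive nuclei. The summed astrocyte markers were at 0 to 3.30 UMIs per 10000 in the positive sums and 2.33 to 27.6 in the negative ones, with *Aldh1l1* at 0 in the positive nuclei. The oligodendrocyte markers were at 6.93 to 40.8 and 20.9 to 105. The comparisons were therefore repeated for the nuclei under 50, which were 101 positive and 692 negative. There the astrocyte markers were at 0 to 1.77 and 0.624 to 2.44.

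The first comparison asked what else differed between GABA nuclei with and without *Npas1*. The positive nuclei had higher levels of the secreted glycoprotein gene *Fstl4* and of *Mctp2*, which encodes a membrane protein with calcium-binding C2 domains, and lower levels of the transcription factor genes *Ebf2*, *Nfib* and *Rorb*. For each rat the UMIs of a group were summed, and edgeR compared the sums by its quasi-likelihood method with the rat as a block. Of 6868 genes tested outside the rule, 333 (4.85%) had a Benjamini-Hochberg adjusted p under 0.05, 59 of them higher (0.859% of those tested) and 274 lower (3.99%) in the positive nuclei. Of these, 21 and 204 had the same sign in all 5 rats, a condition that genes at 0 in rat 3 meet on the lower side. The low-count filter asked for a minimum level in as many sums as a group has. A gene near 0 in the positive nuclei could pass through its negative sums alone. A gene near 0 in the negative nuclei needed that level in the 2 positive nuclei of rat 3 as well. How far this shaped the shares of higher and lower genes was not tested. In the nuclei under 50 glial marker UMIs per 10000, 29 were higher and 67 lower. Of the 59 genes, 56 could be tested there and 22 were called again, and of the 274 it was 184 and 51, with 5 of the 184 of the opposite sign. Without rat 3, 13 of the 59 and 56 of the 274 were called again. Without rat 5 it was 7 and 45.

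*Fstl4* was at 9.55, 4.16, 2.31, 2.10 and 5.63 UMIs per 10000 in the positive nuclei of rats 1 to 5. In the negative nuclei it was at 0.784, 0.917, 0.932, 1.19 and 1.45. The ranges did not overlap, and the log2 fold change was 2.02 ± 0.23 (SE, edgeR adjusted p = 1.50e-15). It was detected in 88 of the 127 positive nuclei. The difference was also present among the nuclei with 1 UMI of *Npas1*, where the pooled level was 4.43, and with at least 2, where it was 5.49, against 1.06 with none. *Mctp2* was at 3.54, 0.716, 2.31, 0.557 and 0.730 in the positive nuclei, where 32 nuclei held it. In the negative nuclei it was at 0.0692, 0.265, 0.349, 0.261 and 0.236 (log2 fold change 1.97 ± 0.26, edgeR adjusted p = 1.29e-11). The groups did not overlap here either, although the value of rat 3 was 1 UMI. Named genes were mostly picked by fold and same sign in all rats, so a gap between their ranges is a description and no added support. Under 50 glial marker UMIs, the log2 fold changes of *Fstl4* and *Mctp2* were 1.67 and 1.84 (edgeR adjusted p = 5.83e-12 and 1.08e-09).

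Inhibitory receptor genes came next. *Glra1*, which encodes a subunit of the glycine receptor, was at 2.48, 0.557, 2.31, 1.18 and 0.959 UMIs per 10000 in the positive and 0.622, 0.260, 0.204, 0.544 and 0.499 in the negative nuclei. It was higher in each rat, while the group ranges overlapped (log2 fold change 1.199 ± 0.24, edgeR adjusted p = 9.11e-05). Of 21 GABA and glycine genes tested, 5 were higher and 3 lower, where 0.859% of all genes tested were higher and 3.99% lower, and their median log2 fold change was 0.17 against -0.02 over all genes tested. The higher ones included the receptor subunit genes *Gabrb2*, *Gabra2* and *Glra3*, at log2 fold changes of 0.84, 0.70 and 0.86. The lower ones included *Glra2* (-1.13), another glycine receptor subunit, and *Slc6a11* (-1.65), a GABA transporter expressed mainly by astrocytes. Under 50 glial marker UMIs, *Glra1* and *Gabra2* were still higher and *Glra2* lower, *Gabrb2* and *Glra3* had edgeR adjusted p = 0.413 and 0.106, and *Slc6a11* was too low to test. Of the 20 genes of the list tested under that filter, 4 were higher and 1 lower, and the median log2 fold change was 0.06. Over all the alternatives tried, *Gabra2* passed under 5 of 18 and *Glra3* under 6 of 18.

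*Nell1*, which encodes a secreted protein of the thrombospondin family, was at 5.54, 9.05, 6.93, 7.12 and 9.21 UMIs per 10000 in the positive and 1.01, 4.29, 4.19, 3.84 and 4.01 in the negative nuclei (log2 fold change 1.17 ± 0.25, edgeR adjusted p = 0.000260). *Thsd7b*, a thrombospondin-domain gene, was at 5.42, 4.403, 4.62, 5.63 and 6.36 against 1.91, 2.72, 2.24, 3.38 and 3.01 (log2 fold change 0.89 ± 0.23, edgeR adjusted p = 0.00672). Neither gene overlapped between the groups. Both were also called under 50 glial marker UMIs, as was *Vwc2l*. *Nell1* was at 7.57 ± 1.55 UMIs per 10000 in the positive nuclei (mean ± SD, n = 5 rats). In the nuclei with *Gata2*, *Gata3* or *Sox14* it was at 6.49 ± 2.66. *Vwc2l*, whose product binds bone morphogenetic proteins, was at 4.24, 3.501, 4.62, 5.32 and 3.29 against 1.89, 1.45, 1.66, 2.10 and 1.85, also without overlap (log2 fold change 1.08 ± 0.22, edgeR adjusted p = 0.000139). *Cpne9* had a log2 fold change of 1.24, the anoctamin *Ano3* of 1.07, *Arhgap18* of 0.93, the serotonin receptor *Htr4* of 0.87 and the netrin-family adhesion gene *Ntng1* of 0.86, all past the threshold and higher in 5 of 5 rats. Of these, *Htr4* and *Ntng1* were not called under 50 glial marker UMIs (edgeR adjusted p = 0.150 and 0.123).

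**Figure D3:**
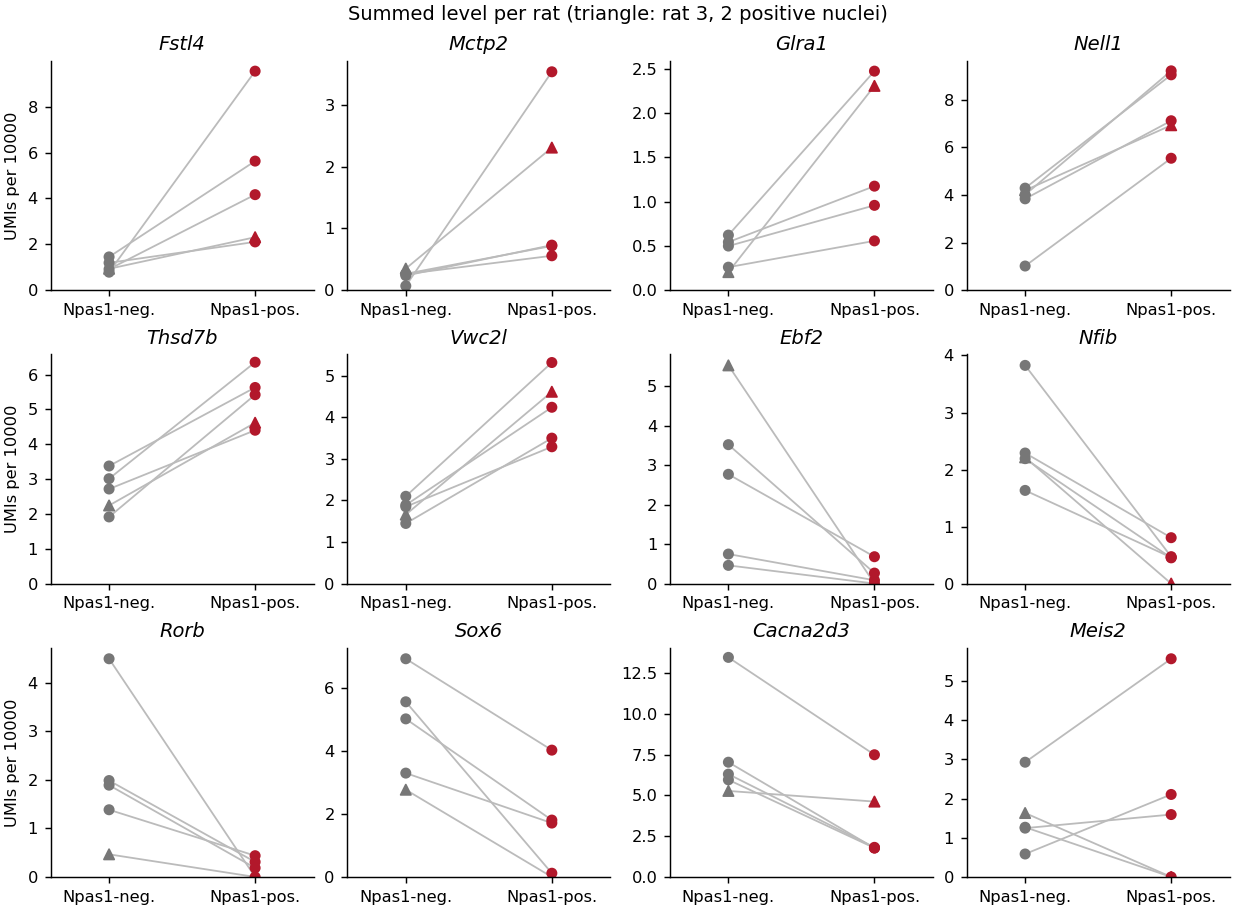
Summed level per rat in UMIs per 10000, *Npas1*-negative (grey) and *Npas1*-positive (red), with a line joining the sums of a rat. Triangles mark rat 3, whose positive sum holds 2 nuclei. *Fstl4*, *Mctp2*, *Glra1*, *Nell1*, *Thsd7b* and *Vwc2l* are higher in the positive sum of every rat, *Ebf2*, *Nfib*, *Rorb*, *Sox6* and *Cacna2d3* lower. In rat 3, *Ebf2*, *Nfib*, *Rorb* and *Sox6* are at 0 in the positive sum. There 1 UMI is 2.31 per 10000, so lower levels mostly read as 0. *Meis2*, a rule gene, goes both ways.

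Among the lower genes of the same sign in all rats, the largest fold was that of *Ebf2*, which encodes a transcription factor of developing midbrain and other neurons. It was at 0, 0.265, 0, 0.681 and 0.0834 UMIs per 10000 in the positive nuclei and at 0.461, 3.52, 5.53, 2.77 and 0.748 in the negative ones (log2 fold change -3.10 ± 0.33, edgeR adjusted p = 8.43e-18). Only 8 of the 127 positive nuclei held it. *Nfib*, of the nuclear factor I family, was at 0.472, 0.451, 0, 0.804 and 0.459 against 3.83, 2.19, 2.21, 2.29 and 1.63 (log2 fold change -2.10 ± 0.26, edgeR adjusted p = 1.71e-12), with no overlap. *Rorb*, an orphan nuclear receptor, was at 0, 0.186, 0, 0.309 and 0.438 against 4.50, 1.89, 0.466, 1.99 and 1.38 (log2 fold change -2.76 ± 0.29, edgeR adjusted p = 6.28e-18). Under 50 glial marker UMIs the log2 fold changes were -3.66 for *Ebf2*, -2.64 for *Nfib* and -1.76 for *Rorb*, each still called.

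Of 44 factors of midbrain GABA neurons in the files, 9 could be tested, and 5 were lower (*Ebf2*, *Nfib*, *Nfia*, *Ebf1* and *Foxp1*) and none higher, against 3.99% and 0.859% of all genes tested. Their median log2 fold change was -1.004 against -0.02 over all genes. *Nfia*, *Ebf1* and *Foxp1* were at log2 fold changes of -1.48, -1.21 and -1.004, and all 5 were also called under 50 glial marker UMIs. Of 29 factors of forebrain GABA neurons, 10 were tested, of which 5 were lower (*Sox6*, *Zeb2*, *Satb1*, *Prox1* and *Bcl11b*) and 2 higher (*Nr2f2* and *Foxp2*), beside the same shares of all genes. *Sox6* was at 0.118, 1.80, 0, 4.02 and 1.71 UMIs per 10000 against 5.56, 5.01, 2.77, 6.92 and 3.29 (log2 fold change -1.47 ± 0.25, edgeR adjusted p = 2.11e-06), and under 50 glial marker UMIs its log2 fold change was -2.14. *Zeb2* was also called there (-1.42), and *Satb1*, *Prox1*, *Bcl11b* and *Nr2f2* were too low to test. By cluster, the pooled *Sox6* level was 0.0483 in the positive and 0.237 in the negative nuclei of cluster 1. In the positive nuclei of the other clusters it was 4.38, against 4.82 over all negative nuclei. *Nr2f2* and *Foxp2* were higher in 3 of 5 rats each, and *Foxp2* was not called under 50 glial marker UMIs (edgeR adjusted p = 0.912). *Lhx6* and *Nkx2-1*, which mark forebrain GABA lineages, were singled out after their values were seen. They had 0 UMIs in the 127 positive and in the 1263 negative nuclei. For the positive nuclei this allows a share with a UMI of up to about 2.36%, taken as 3 in 127. The bound treats nuclei pooled over rats as independent and concerns detection at this depth.

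Of the bHLH-PAS family, 12 of 21 genes in the files were tested, none was higher, and *Epas1* (log2 fold change -1.04) and *Npas2* (-0.92) were lower, at edgeR adjusted p = 0.0461 and 0.0364. These are 2 of 12 genes, where 4.85% of all genes tested were called. *Epas1* passed the threshold under 0 of 12 alternatives and *Npas2* under 2 of 14. Under 50 glial marker UMIs *Npas2* was at an edgeR adjusted p of 0.160, and *Epas1*, which endothelial cells express highly, was not tested. The dimer partners were named after their values were seen. *Arnt2* was detected in 120 and *Arnt* in 78 of the 127 positive nuclei. *Arnt2* was at 4.02 ± 0.823 UMIs per 10000 (SD, n = 5 rats) against 2.49 ± 0.847 (log2 fold change 0.43 ± 0.23, edgeR adjusted p = 0.387), and *Arnt* had an edgeR adjusted p of 0.845.

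The promoter of *Npas1* and that of *Fstl4*, which had the largest fold among the higher genes of the same sign in all rats, are shown because NPAS1 dimers bind a core of ACGTG. They are the 250 bases before the gene start in RefSeq (GRCr8), 5′ to 3′ on the strand of the gene, with ACGTG or its reverse complement CACGT in capitals. *Npas1* lies on the minus strand (chr1:86314894-86315143) with 1 match, starting 135 bases before the gene start, and *Fstl4* on the plus strand (chr10:37412038-37412287) with none.
*Npas1*: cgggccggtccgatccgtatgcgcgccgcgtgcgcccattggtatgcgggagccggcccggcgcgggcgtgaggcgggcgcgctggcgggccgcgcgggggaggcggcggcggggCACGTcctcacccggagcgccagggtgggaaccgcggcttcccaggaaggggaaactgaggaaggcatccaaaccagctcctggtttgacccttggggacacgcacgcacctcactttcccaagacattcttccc
*Fstl4*: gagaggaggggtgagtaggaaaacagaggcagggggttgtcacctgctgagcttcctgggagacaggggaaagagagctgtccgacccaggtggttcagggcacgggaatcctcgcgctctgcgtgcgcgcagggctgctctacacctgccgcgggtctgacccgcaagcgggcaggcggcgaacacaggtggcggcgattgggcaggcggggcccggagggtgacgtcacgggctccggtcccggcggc
The core was found on either strand in 16.6% of 33469 such windows, in 21.7% of the 6149 windows of tested genes, in 5 of the 51 of genes that were higher (9.80%) and in 44 of the 213 of genes that were lower (20.7%). A match is a run of letters and not a binding site, and these windows leave out most regulatory sequence.

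Of 9 calcium-binding protein genes, 6 were tested and 4 were lower, where 3.99% of all genes tested were lower. The median log2 fold change of the 6 was -0.93 against -0.02 over all genes. The lower ones included *Calb2* (calretinin), *Hpcal1* and *Necab1*, at log2 fold changes of -1.51, -1.32 and -1.09. These 3 were also called under 50 glial marker UMIs. Among 10 neuropeptide and secretory genes tested, *Scg2*, a secretogranin, was lower (-0.90), and it was not called under 50 glial marker UMIs (edgeR adjusted p = 0.0887). Among 12 receptors for modulators, *Tacr3*, the receptor of neurokinin B, was lower (-1.45) and also called under that filter (-2.16), and *Htr4* was higher, where 0.859% of all genes tested were higher. Of 21 glutamate receptor genes, 1 was higher, against that same 0.859% of all genes. *Grik1*, a kainate receptor subunit, was at a log2 fold change of 0.88, higher in 4 of 5 rats, and it was not called under 50 glial marker UMIs (edgeR adjusted p = 0.912). *Grik1* passed the threshold under 1 of 18 alternatives.

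The ion channel and adhesion lists held 6 called genes, a share near the 4.85% over all genes tested. Of 27 potassium, HCN and chloride transport genes tested, *Slc12a2*, a chloride importer, was lower (-0.79), and of 24 sodium and calcium channel genes *Cacna2d3* and *Cacna2d1*, auxiliary subunits of calcium channels, were lower (-1.57 and -1.22). *Cacna2d3* was at 1.77, 1.78, 4.62, 7.49 and 1.81 UMIs per 10000 against 7.03, 5.95, 5.27, 13.5 and 6.30, lower in each rat with overlapping ranges (SE 0.26, edgeR adjusted p = 1.05e-06). Of 59 adhesion and guidance genes, *Ntng1* and *Cdh18* were higher and *Sema3e* lower. Under 50 glial marker UMIs *Cacna2d3* was still called (-1.96), while *Slc12a2*, *Cacna2d1*, *Cdh18* and *Sema3e* were not (edgeR adjusted p = 0.577, 0.608, 0.690 and 0.0836). *Cdh18* passed the threshold under 0 of 18 alternatives. Of 19 activity genes 2 were tested, and *Jund* was lower (-1.38), and was too low to test under the glial filter. The median log2 fold changes of these lists lay between -0.01 and 0.15, apart from the activity genes at -0.73, against -0.02 over all genes. Under 50 glial marker UMIs the median was -0.06 for the potassium, HCN and chloride genes. It was -0.16 for the sodium and calcium channel genes and -0.04 for the adhesion and guidance genes.

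Part of the lower side consisted of astrocyte genes. Of 7 astrocyte markers, 5 were tested and all 5 were lower, where 3.99% of all genes tested were lower, among them *Gja1* (-2.24), *Gfap* (-2.03), *Aqp4* (-1.79) and *Slc1a3* (-1.57). *Itih3*, *Slc4a4* and *Mertk*, which astrocytes also express, were lower as well (-2.95, -2.13 and -2.34). The remaining large folds were *Kitlg* (-2.37), *Wls* (-1.92), *Dpf3* (-1.89) and *Nhsl1* (-1.88). Of 9 oligodendrocyte markers tested, 6 were lower, as was 1 of 4 precursor markers, at median log2 fold changes of -0.83 and -0.36 against -0.02 over all genes, while the microglial and vascular markers, and those of glutamate, serotonin and acetylcholine neurons, were too low to test. The 1 dopamine marker tested was lower, and none of 4 general neuron markers was called. Under 50 glial marker UMIs, *Slc4a4* had a log2 fold change of -0.84 (edgeR adjusted p = 0.0786), the other astrocyte genes named here were too low to test, and 0 of 6 oligodendrocyte markers tested was called. The filter uses these marker genes, so their own change under it is a matter of construction.

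**Figure D4:**
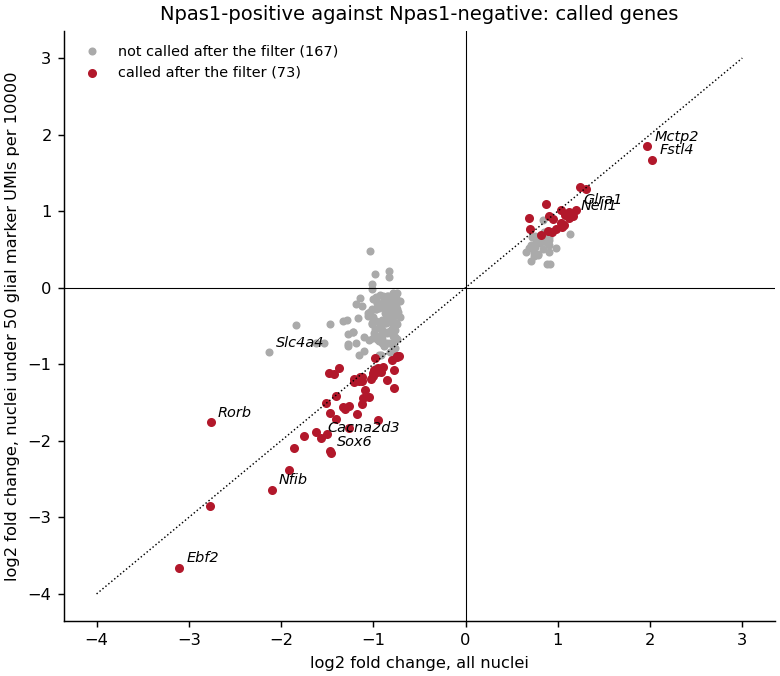
Log2 fold change of the called genes, *Npas1*-positive against *Npas1*-negative, in all nuclei (x) and in nuclei under 50 glial marker UMIs per 10000 (y). Red genes are called after the filter (73) and grey genes are not (167). *Ebf2*, *Nfib*, *Fstl4* and *Mctp2* stay near the dotted line of equal values, and *Slc4a4* moves towards 0.

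These calls rest on the pairing of sums within a rat. Without the rat as a block edgeR called 0 genes (346 at an unadjusted p under 0.05), and DESeq2 with the block called 8 higher and 39 lower. Leaving out single rats moved the counts as well. The higher and lower genes were 48 and 159 without rat 1, 12 and 86 without rat 2, 13 and 67 without rat 3, 41 and 180 without rat 4, and 7 and 47 without rat 5. *Fstl4*, *Mctp2*, *Glra1*, *Ebf2*, *Nfib* and *Rorb* were called without rat 3 and without rat 5, while *Nell1* and *Thsd7b* were not without rat 5 (edgeR adjusted p = 0.268 and 0.576), *Sox6* not without rat 3 (0.0520) and *Cacna2d3* not without rat 5 (0.0508). Of the 54 genes named in this comparison, 20 passed the threshold under no more than 1 in 2 of their alternatives. Besides *Cdh18*, *Epas1*, *Npas2*, *Grik1*, *Gabra2* and *Glra3*, these were *Gabrb2* (2 of 18), *Slc12a2* (3 of 18), *Scg2* (5 of 18), *Foxp2* (7 of 18), *Htr4*, *Ntng1* and *Sema3e* (8 of 18 each), *Thsd7b* (9 of 18), *Cacna2d1* (8 of 17), *Nr2f2* (5 of 13), *Satb1* (6 of 12), *Prox1* (4 of 9), *Bcl11b* (1 of 9) and *Jund* (4 of 8). Within cluster 1, 4 rats entered the fit, since rat 3 had no negative nuclei there, and rat 1 had 1 positive nucleus. Of the 3769 genes that could be tested, 1 was higher and 3 were lower, and *Fstl4* had a log2 fold change of 0.91 (edgeR adjusted p = 0.119). *Cacna2d3* was lower there too (-2.14, edgeR adjusted p = 1.36e-05). *Ebf2* could not be tested within cluster 1, where its pooled level was 0.0965 UMIs per 10000 in the positive and 0.0382 in the negative nuclei, from 4 nuclei each. Of the 274 lower genes, 125 could be tested there and 19 had the opposite sign.

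The second comparison set the positive nuclei against the 452 GABA nuclei with *Gata2*, *Gata3* or *Sox14*, transcription factors of midbrain GABA neurons. The same 127 nuclei entered all 3 comparisons. Of 5816 genes tested with edgeR, 112 (1.93%) were called, 62 higher (1.07%) and 50 lower (0.86%), of which 14 and 37 had the same sign in every rat. *Fstl4* was at 0.581, 0.750, 0.615, 0.853 and 1.11 UMIs per 10000 in the *Gata2*, *Gata3* or *Sox14* nuclei, below each rat of the positive nuclei (log2 fold change 2.30 ± 0.25, edgeR adjusted p = 2.31e-16). *Dach1*, which encodes a nuclear cofactor, was at 11.1, 7.88, 4.62, 2.66 and 2.44 against 1.16, 0.901, 2.05, 1.3996 and 0.769 (log2 fold change 2.03 ± 0.25, edgeR adjusted p = 1.29e-12). *Mctp2* (1.87), *Klhl1* (1.57), *Ntng1* (1.32), *Hs6st2* (1.18), *Serpini1* (1.14), the ephrin receptor *Epha4* (1.004), the guidance cue *Slit2* (0.93) and *Thsd7b* (0.92) were higher in every rat. Of these, *Slit2* passed the threshold under 7, *Thsd7b* under 9 and *Hs6st2* under 10 of 16 alternatives.

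On the lower side, *Sorcs1*, a sorting receptor, was at 0.354, 3.16, 0, 5.45 and 3.67 UMIs per 10000 in the positive nuclei. In the *Gata2*, *Gata3* or *Sox14* nuclei it was at 12.6, 14.6, 7.10, 18.1 and 25.2, with no overlap (log2 fold change -2.64 ± 0.28, edgeR adjusted p = 4.53e-17). *Cacna2d3* was at 10.8, 11.2, 6.03, 16.1 and 20.9 in those nuclei, and the ranges overlapped (-2.46 ± 0.29, edgeR adjusted p = 1.00e-14). *Foxp1*, a forkhead transcription factor, was at 0.354, 1.247, 0, 1.79 and 1.10 against 3.77, 3.20, 4.02, 4.31 and 5.57 (-1.92 ± 0.27, edgeR adjusted p = 8.94e-10). *Ikzf1* (-2.69), *Itga6* (-2.61), *Tll1* (-2.53), *Sulf1* (-2.53), *Myo5b* (-1.94), *Col25a1* (-1.90), *Sema3e* (-1.89) and *Stac* (-1.85) were lower too. Of the *Gata2*, *Gata3* or *Sox14* nuclei, 76.5%, 34.0%, 27.8%, 4.17% and 9.375% were at 50 glial marker UMIs or more in rats 1 to 5, above the positive nuclei in rats 1 and 3. Under 50, 73 genes were higher and 75 lower, and the genes named here were called again, except *Ikzf1*, *Itga6* and *Col25a1*, which were too low to test. Without the rat as a block 2 were higher and 1 lower (215 at an unadjusted p under 0.05), and the counts were 94 and 79 without rat 1, 16 and 25 without rat 2, 38 and 36 without rat 3, 36 and 36 without rat 4, and 24 and 24 without rat 5.

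The third comparison was with the 293 GABA nuclei that had at least 2 of *Pax7*, *Meis2*, *Corin* and *Nox4*. Of 5281 genes tested with edgeR, 302 (5.72%) were called, 106 higher (2.01%) and 196 lower (3.71%), of which 53 and 128 had the same sign in every rat. *Mctp2* was at 0, 0.139, 0, 0.115 and 0.255 UMIs per 10000 in those nuclei (log2 fold change 2.30 ± 0.35, edgeR adjusted p = 1.96e-07), and *Thsd7b* at 0.949, 0.942, 0.628, 2.13 and 3.29 (1.57 ± 0.23, edgeR adjusted p = 1.59e-07). *Htr4* was at 2.71, 2.04, 4.62, 2.91 and 3.23 in the positive nuclei against 0.158, 0.888, 1.26, 0.853 and 1.12 (1.51 ± 0.23, edgeR adjusted p = 1.48e-07). None of these 3 genes overlapped between the groups. *Glra1* (2.20), the adhesion gene *Opcml* (1.67), *Gabrb2* (1.498), the axon guidance receptor *Robo1* (1.36) and the kinase *Camk2d* (1.34) were higher in every rat. *Fstl4* was at 1.90, 4.22, 3.77, 4.79 and 2.66 in these nuclei, which overlapped the range of the positive nuclei.

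*Ebf2* was at 14.1, 5.42, 13.2, 1.71 and 3.40 UMIs per 10000 in the *Pax7*, *Meis2* nuclei, above every rat of the positive nuclei (log2 fold change -4.30 ± 0.34, edgeR adjusted p = 2.22e-18). *Sorcs1* was at 10.9, 29.9, 16.95, 21.9 and 17.4 (-2.86 ± 0.27, edgeR adjusted p = 4.15e-15), again without overlap. *Iqgap2* (-4.49), the nicotinic receptor subunit *Chrna5* (-4.20), the growth factor receptor *Egfr* (-3.29), the phosphodiesterase *Pde1c* (-3.13), *Dach2* (-3.10), *Gas7* (-2.66), *Boc* (-2.59) and *Rorb* (-2.58) were lower, each in 5 of 5 rats. Of the *Pax7*, *Meis2* nuclei, 57.1%, 47.7%, 22.2%, 13.8% and 12.8% were at 50 glial marker UMIs or more in rats 1 to 5, above the positive nuclei in each rat, and under 50 the counts were 100 higher and 158 lower. The genes named as called here were called again, except *Chrna5* and *Gas7*, which were too low to test. Without the rat as a block 11 genes were higher and 55 lower (369 at an unadjusted p under 0.05), and the counts were 30 and 91 without rat 2 and 40 and 97 without rat 5.

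**Figure D5:**
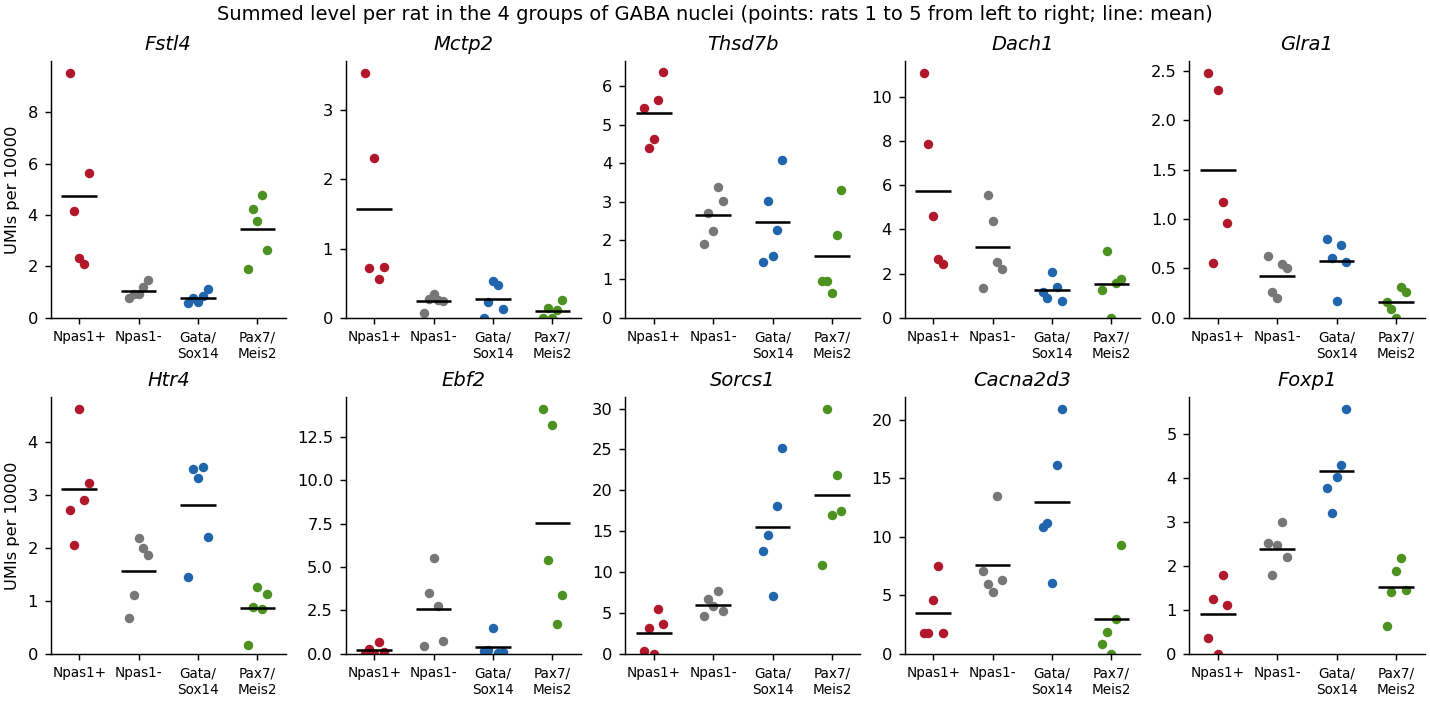
Summed level per rat in UMIs per 10000 in the 4 groups of GABA nuclei, as labelled on the x axis. Points are rats 1 to 5 from left to right and lines are means. *Mctp2* and *Thsd7b* of the positive nuclei lie above the 3 other groups, *Sorcs1* of the positive nuclei lies below the *Gata2*, *Gata3* or *Sox14* and the *Pax7*, *Meis2* groups, and *Ebf2* is at 1.48 or less in every rat of the positive and the *Gata2*, *Gata3* or *Sox14* groups.

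*Mctp2* and *Thsd7b* were called higher in all 3 comparisons, which share the positive nuclei. Their log2 fold changes were 1.97, 1.87 and 2.30 for *Mctp2*, and 0.89, 0.92 and 1.57 for *Thsd7b*, against the *Npas1*-negative, the *Gata2*, *Gata3* or *Sox14*, and the *Pax7*, *Meis2* nuclei. *Thsd7b* passed under 9 of 18, 9 of 16 and 16 of 17 alternatives. Pooled over rats, *Thsd7b* was at 6.64 UMIs per 10000 in the positive and 5.94 in the negative nuclei of cluster 1. The negative nuclei of that cluster were thus close to the positive ones. In the positive nuclei of other clusters *Thsd7b* was at 4.06, against 2.80 over all negative nuclei. *Mctp2* was at 0.869 and 0.291 within cluster 1, 0.988 in the other positive nuclei and 0.251 over all negative nuclei.

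*Glp1r*, the receptor the study is about, was too low to test. It had 6 UMIs in 3 of the 47 positive nuclei of rat 2, 5 UMIs in 3 of the 54 of rat 5, and 0 in rats 1, 3 and 4. In the negative nuclei 3 of 633 held it in rat 2 and 4 of 247 in rat 5, with 0 in rats 1, 3 and 4. In the *Gata2*, *Gata3* or *Sox14* nuclei 2 of 17, 17 of 188, 2 of 79, 1 of 72 and 4 of 96 held it in rats 1 to 5. In the *Pax7*, *Meis2* nuclei 2 of 172 held it in rat 2, 1 of 58 in rat 4 and 1 of 47 in rat 5. The median depth was 8236 UMIs in the positive, 4893 in the negative, 8170.5 in the *Gata2*, *Gata3* or *Sox14* and 7909 in the *Pax7*, *Meis2* nuclei. With 6 positive nuclei in 2 rats, the differences between groups were not tested.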

How the data were processed

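VTA nuclei of 5 rats were profiled by snRNA-seq. The authors deposited unfiltered UMI counts per gene (32883 genes) and barcode, 1 matrix per rat, made with Cell Ranger 8.0.1 per the submitters' processing notes. The genome build is not given in the sources used here, and the study's correction of free RNA, integration and doublet removal are not part of the deposited counts. The nuclei, the members and the gene lists were chosen with earlier results of these data known. Genes named are at most 12 per direction and comparison, called, with the same sign in all rats, by fold, plus the called genes of the lists, and some genes that this rule names are not reported here. UMI counts were summed per rat and group and tested with edgeR 4.0.16 (R 4.3.3; TMM, low-count filter, quasi-likelihood test, rat as block), without the 17 rule genes, with Benjamini-Hochberg adjustment. The 2 sums of a rat come from the same animal, and their deviations from the group means correlated at 0.132 to 0.402 in the first comparison, 0.174 to 0.386 in the second and 0.154 to 0.321 in the third. The SE given with a log2 fold change was back-calculated, as its absolute value over the square root of the edgeR F statistic. It is not a spread over rats. Levels are UMIs per 10000. Whether ranges overlap is stated for named genes only, without the share over all genes tested. With 5 rats, an exact test over rats cannot go below p = 0.0625. Clusters came from scanpy 1.11.5 (2000 variable genes without the rule genes, values centred per library, 20 components, 15 neighbours, resolution 0.8). The edgeR script was run on simulated counts, which held no difference between rats and so could not check the rat block. Alternatives included DESeq2 1.42.0, other filters on nuclei and leaving out each rat. The glial filter, the removal of the top 5% of Scrublet scores and the test within cluster 1 were chosen after seeing the data.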

Additional observations from a re-analysis of the deposited data

Results flagged for a closer look

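Of 48 groups of 5 rats whose values are given, 4 held a rat whose gap to its nearest neighbour, over the whole range, passed Dixon's critical value of 0.71, and chance passes about 1 in 20 groups. *Npas1* in the positive nuclei was highest in rat 3, at 4.62 UMIs per 10000, from 2 nuclei. *Nell1* in the negative nuclei was lowest in rat 1, at 1.01, where 87.5% of the nuclei reached 50 glial marker UMIs per 10000. *Cacna2d3* in the negative nuclei was highest in rat 4, at 13.5. *Glp1r* in the negative nuclei was highest in rat 5, at 0.0459, from 7 UMIs.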

How the results depend on the processing

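Against the *Npas1*-negative nuclei, where 59 genes were higher and 274 lower, the higher and lower counts were 8 and 39 with DESeq2, 34 and 195 with DESeq2 size factors, 17 and 306 without the low-count filter, and 0 and 0 without the replicate block, that is, without the pairing by rat. They were 17 and 51 at matched UMI totals, 49 and 176 at 2000 UMIs or more, 8 and 57 with at least 2 *Npas1* UMIs, 1 and 7 with all 3 GABA genes, and 30 and 158 without a *Mog* UMI. Chosen after seeing the data, they were 29 and 67 under 50 glial marker UMIs, 18 and 43 with matched totals as well, 36 and 181 without the top 5% of Scrublet scores and 1 and 3 within cluster 1. Leaving out each rat in turn gave 7 to 48 higher and 47 to 180 lower.

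Against the *Gata2*, *Gata3* or *Sox14* nuclei (62 and 50), the counts were 17 and 27 with DESeq2, 61 and 93 without the low-count filter, 2 and 1 without the replicate block, 18 and 15 at matched totals, 19 and 22 with at least 2 *Npas1* UMIs, 31 and 15 with all 3 GABA genes, and 34 and 37 without a *Mog* UMI. Leaving out each rat gave 16 to 94 and 24 to 79. Against the *Pax7*, *Meis2* nuclei (106 and 196), they were 48 and 136 with DESeq2, 11 and 55 without the replicate block, 52 and 127 at matched totals, 33 and 89 with at least 2 *Npas1* UMIs and 23 and 45 with all 3 GABA genes. Leaving out each rat gave 30 to 131 and 91 to 246. The cause of these moves was not tested. Against the *Npas1*-negative nuclei, 6868 genes were tested in the main fit, with DESeq2 and without the block. The number was 3606 at matched totals and 7591 without rat 3. Rat 3 had no *Npas1*-positive nuclei with at least 2 *Npas1* UMIs or all 3 GABA genes and was left out there. It also had no negative nuclei in cluster 1 and was left out of that fit.

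The mean *Npas1*-positive share was 16.5% under 50 glial marker UMIs, 1.99% when thinned to 1000 UMIs, 3.94% for nuclei with at least 2 *Npas1* UMIs, and 6.95% to 11.1% when each rat was left out. Of the named genes, 1 changed sign, *Foxp2*, to -0.064 with at least 2 *Npas1* UMIs, against the *Npas1*-negative nuclei. For the 54 genes named there, 479 alternative values stayed past the threshold in the same direction and 336 kept the direction but did not pass it. For the 24 named in the second comparison it was 279 and 62, and for the 23 in the third 340 and 6. The Scrublet call removed no nucleus in the first 2 comparisons, which therefore had no separate fit, and 1 of the *Pax7*, *Meis2* nuclei (rat 1, leaving 6), after which 102 genes were higher and 182 lower. Depth limits the result in rat 3, where 1 UMI is 2.31 per 10000.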
